A study of Rattus norvegicus with 15 samples.

Results

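Isolated renal proximal tubules of rats given 10 mg/kg cisplatin were compared with those of rats given 2 mg/kg, on 3 arrays at each dose, so that 6 of the 15 arrays of the series carry the comparison. The arrays were assigned to the doses by their titles. All animals of the series were male Wistar/ST rats aged 8 weeks. Cisplatin, a platinum drug used against tumours, was injected into the peritoneum, and the control rats received saline in an equal volume. Tubules were isolated with the aid of a microscope, and labelled cRNA made from their total RNA was hybridised to a 1-colour rat microarray of Applied Biosystems. The other 9 arrays hold tubules of saline rats and whole kidneys after saline or 10 mg/kg cisplatin, 3 of each. The time between injection and sampling, any pooling of animals, and whether each array stands for its own animal are not stated in the labels used here. The p-values therefore measure the spread between these arrays, which may be technical.

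The proximal tubule takes back most of the glucose, phosphate, amino acids, bicarbonate and small proteins that the glomerulus filters, through carriers and scavenger receptors of its brush border. Its cells run on fatty acid oxidation and mitochondrial respiration, make glucose and several metabolites for the body, and secrete drugs through organic ion carriers of the basal membrane. Cisplatin enters these cells through such carriers, binds DNA and damages mitochondria, and kidney injury limits its dose in patients. Injured tubule cells are known to lose parts of the transport programme and to express kidney injury molecule 1 (Havcr1), lipocalin 2 (Lcn2) and the p53 target Cdkn1a.

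At the higher dose the tubules held more transcript of injury markers, S100 proteins, the cell cycle inhibitor Cdkn1a, the chemokine Ccl20 and interferon-stimulated genes, and less transcript of carriers, gluconeogenic enzymes and enzymes of amino acid metabolism. Of 26601 probes tested, 1711 (6.43%) passed a Benjamini-Hochberg adjusted p of 0.05 in limma, a linear model with a spread moderated across probes. Of these, 707 (2.66% of those tested) were higher and 1004 (3.77%) were lower at 10 mg/kg. The differences ran from -5.66 to 5.46 on the log2 scale. Among the called probes, 245 rises and 485 falls exceeded 4-fold, and 27 rises and 24 falls exceeded 16-fold. Without regard to the test, the 3 arrays of one dose lay wholly apart from the 3 of the other for 6877 probes (25.9%).

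The balance between rises and falls depended on how the arrays were scaled. With quantile normalization the split was 707 higher and 1004 lower. Median centring gave 352 and 973, and no scaling gave 142 and 868. The median difference over all tested probes was 0.04 with quantile normalization, 0.11 with median centring and -0.14 with no scaling, and each difference given here is to be read against that shift. Calls were concentrated among bright probes. With the probes cut into 4 equal classes of brightness, the brightest class held 518 of the rises and 679 of the falls, the next 145 and 263, the one below 26 and 54, and the dimmest 18 and 8. The median residual SD in the same order was 0.349, 0.715, 0.814 and 0.727, so that only the brightest class stood apart in spread.

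**Figure D1:**
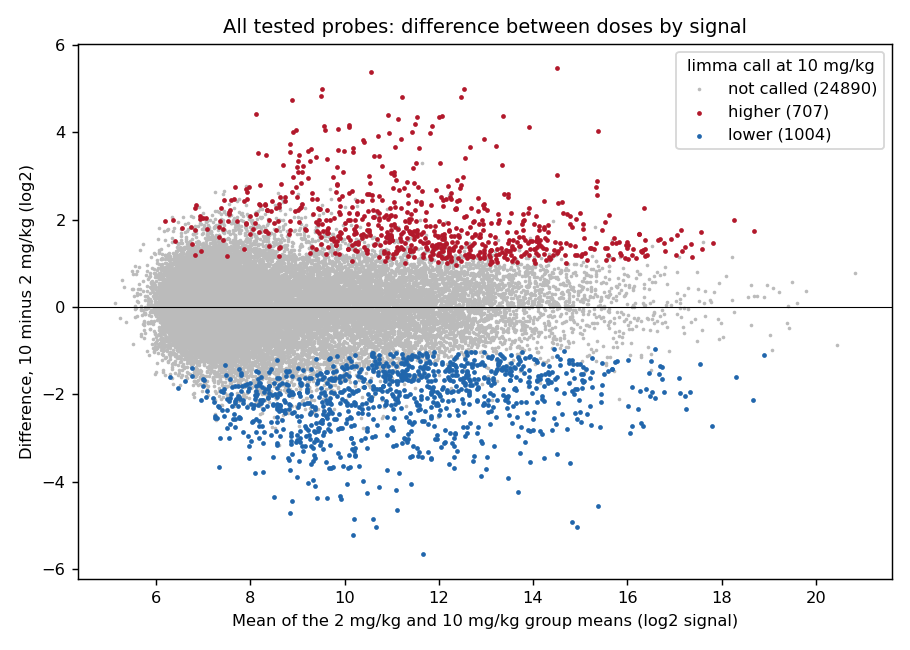
Difference between 10 and 2 mg/kg (log2, vertical axis) against the mean of the 2 group means (log2 signal, horizontal axis) for each of the 26601 tested probes, with 1 point per probe. The 707 probes called higher and the 1004 called lower lie mostly to the right, and few of the dim probes at the left were called.

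A gene symbol was available for 401 of the probes, and the genes described below come from these. Of the 401 named genes, 42 (10.5%) rose, 203 (50.6%) fell and 156 did not pass the test, against 2.66% and 3.77% of all tested probes. In the fit on the 6 arrays alone, 36 of these rises and 138 of these falls were also called. Their median difference was -1.31, beside 0.04 over all tested probes. These shares describe a selection: every named probe lies in the table of 1219 probes that the authors deposited for the series, and no source used here states how those probes were chosen. Within it, 120 probes rose and 501 fell, whereas among the 25382 probes outside it 587 (2.31%) rose and 503 (1.98%) fell. The counts for the named genes therefore hold for that selection only. The counts of each gene list below are to be read beside the 10.5% and 50.6% of all named genes. For all 42 named genes that rose and all 203 that fell, the arrays of the doses did not overlap. A lack of overlap in a called gene therefore adds nothing to its call. Over all 401 named genes, the 10 mg/kg arrays lay wholly higher in 66 and wholly lower in 258. A lack of overlap was thus common among named genes, also where no call was made. In bulk tubules, fewer cells of a type and less RNA per cell cannot be told apart.

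Arrays of one dose resembled each other more than those of the other dose. The mean correlation of an array with the others of its own group ran from 0.917 to 0.941 at 2 mg/kg and from 0.889 to 0.907 at 10 mg/kg, and between the doses from 0.852 to 0.896, across probes within these arrays. The 10 mg/kg arrays did not lie equally far from the lower dose. Among the 203 named genes that fell, replicate 2 was the lowest of the 3 arrays in 117 (57.6%), beside 36.1% over all probes. Among the 42 that rose, replicate 1 was the lowest in 24 (57.1%), beside 31.0% over all probes.

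Tubular injury markers rose in all 3 of the named members, with a median difference of 3.22. Havcr1, kidney injury molecule 1, is a membrane receptor for phosphatidylserine that injured proximal tubule cells put on their surface. Its log2 signal was 9.12, 9.34 and 9.64 at 2 mg/kg and 13.82, 13.34 and 14.004 at 10 mg/kg. No array of one dose came near those of the other, and the difference was 4.36 ± 0.41 (SE, n = 3 arrays a group), a 20.5-fold rise with an adjusted p of 4.3e-05. Lcn2, an iron-siderophore carrier that serves as a urinary marker of kidney injury, read 7.15, 7.71 and 7.64 at 2 mg/kg and 10.31, 10.06 and 11.79 at 10 mg/kg. It rose by 3.22 ± 0.51 (adjusted p = 0.00159), from a mean signal percentile of 40.2 at 2 mg/kg. Its arrays did not overlap between the doses. Spp1, the secreted matrix protein osteopontin, rose by 2.88 ± 0.58 (adjusted p = 0.00778), and this call was lost when only the 6 arrays compared were fitted (adjusted p = 0.0619).

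S100 proteins and annexins, which bind calcium and membranes, rose in 4 of 6 named members, with a median of 2.97. S100a10 and Anxa2 encode the subunits of one complex at the cell surface. S100a10 read 11.42, 11.61 and 12.55 at 2 mg/kg and 15.80, 16.09 and 16.06 at 10 mg/kg, a rise of 4.12 ± 0.38 (adjusted p = 3.9e-05). Its partner Anxa2 read 11.58, 11.53 and 12.04 at the lower dose and 15.14, 14.71 and 15.06 at the higher, and rose by 3.26 ± 0.40 (adjusted p = 0.000251). Neither gene had overlapping arrays. S100a6 rose by 4.30 ± 0.51 (adjusted p = 0.000214) and S100a11 by 2.67 ± 0.44 (adjusted p = 0.00206), the call for S100a11 being lost with no scaling (adjusted p = 0.0575). The remaining members, Anxa1 at 1.32 ± 0.42 and S100a4 at 0.76 ± 0.38, did not pass the test, although their arrays did not overlap either.

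Genes of the p53 response and of cell cycle arrest rose in 2 of 3 named members. Cdkn1a encodes p21, the inhibitor of cyclin-dependent kinases that p53 induces after DNA damage. Its signal was 8.24, 7.65 and 6.57 at 2 mg/kg and 11.55, 11.55 and 11.80 at 10 mg/kg. The lowest array at 10 mg/kg stood well above the highest at 2 mg/kg, and the rise was 4.15 ± 0.57 (adjusted p = 0.000646). Plk2, a polo-like kinase that is also a p53 target, read 10.45, 10.94 and 11.07 at the lower dose and 14.40, 14.36 and 14.71 at the higher and rose by 3.67 ± 0.56 (adjusted p = 0.00128). The third member, the tetraspanin Cd82, differed by -0.81 ± 0.29 and did not pass the test (adjusted p = 0.127), although its arrays lay lower at 10 mg/kg without overlap and it was called lower with array weights (0.022), among the brighter probes (0.0271), with a trended spread (0.0213) and in the authors' series table (0.0124). The list of cell cycle and DNA replication genes held the same Cdkn1a and Plk2 and no other named gene.

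Of 4 named chemokines and cytokines, Ccl20 and Spp1 rose. Ccl20, which attracts cells bearing the receptor CCR6, showed the largest rise among the named genes. It read 6.98, 5.88 and 8.23 at 2 mg/kg and 12.12, 12.62 and 11.30 at 10 mg/kg. The low-dose arrays were spread widely and dim, at a mean percentile of 25.7, and the rise was 4.98 ± 0.59 (31.7-fold, adjusted p = 0.000405). It was 48.0-fold without 2 mg/kg replicate 3 and 21.3-fold without 2 mg/kg replicate 2. The monocyte attractant Ccl2 read 9.73, 7.56 and 10.02 at 2 mg/kg and 11.45, 11.66 and 11.13 at 10 mg/kg. Its arrays did not overlap, but with this spread its difference of 2.31 ± 0.81 did not pass the test (adjusted p = 0.126), although it did with a spread that follows the signal level (0.0396) and in the authors' series table (0.00537). The neutrophil attractant Cxcl2 likewise gave 1.78 ± 0.64 (adjusted p = 0.136).

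All 4 named interferon-stimulated genes rose, with a median of 3.34. Isg20, an exonuclease that degrades viral RNA, read 9.78, 9.49 and 8.97 at 2 mg/kg and 13.30, 13.52 and 13.97 at 10 mg/kg. The separation exceeded the spread at both doses, with a rise of 4.18 ± 0.43 (adjusted p = 9.5e-05). Rsad2, the antiviral enzyme viperin, read 7.996, 7.68 and 7.04 at the lower dose and 11.35, 11.77 and 11.73 at the higher and rose by 4.05 ± 0.56 (adjusted p = 0.000617). Oasl, of the oligoadenylate synthetase family, rose by 2.63 ± 0.47, and the transcription factor Irf1 by 2.01 ± 0.36, a call lost with no scaling (adjusted p = 0.223). Leukocytes also express many genes of these last groups. Of 34 leukocyte markers listed, 2 had a named probe: the complement genes C1qa and C1qc. C1qa read 11.53, 11.75 and 12.26 at the lower dose and 12.66, 13.80 and 12.67 at the higher, and C1qc read 10.72, 10.62 and 11.48 and then 11.86, 12.85 and 12.19. Both lay higher on every 10 mg/kg array, by 1.19 ± 0.40 and 1.36 ± 0.43, without passing the test (adjusted p = 0.108 and 0.0829), and their part in the rise of the chemokine and interferon genes was not tested.

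Among immediate early and stress transcription factors, 2 of 4 named members rose. Klf6, a zinc finger factor induced early after injury, rose by 2.32 ± 0.30 (adjusted p = 0.0004), a call lost with no scaling (adjusted p = 0.151). Ier3, an early response gene, rose by 1.41 ± 0.37 (adjusted p = 0.0343), and its call was lost in 11 of the alternatives, including every one that left out an array. Egr2 read 10.33, 7.61 and 8.80 at 2 mg/kg and 9.54, 10.06 and 9.48 at 10 mg/kg. Its arrays overlapped, and neither Egr2 (0.78 ± 0.72) nor Klf5 (0.71 ± 0.49) passed the test. Tnfrsf1a, the death domain receptor of tumour necrosis factor, rose by 1.92 ± 0.28 (adjusted p = 0.000926), and this call was lost with median centring (adjusted p = 0.0516) and with no scaling (0.344).

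Growth factors moved in both directions. Hbegf, a membrane-bound ligand of the epidermal growth factor receptor, read 8.92, 8.44 and 7.69 at 2 mg/kg and 12.16, 11.87 and 11.92 at 10 mg/kg, a rise of 3.63 ± 0.41 (adjusted p = 0.000179). The arrays at 10 mg/kg lay within a narrow band, far above those at 2 mg/kg. Pdgfa, a platelet-derived growth factor chain, rose by 2.36 ± 0.33 (adjusted p = 0.000651), and lost the call with no scaling (adjusted p = 0.141). Fgf9, a fibroblast growth factor, fell by 1.92 ± 0.43 (adjusted p = 0.0145), a call lost in the 6-array fit (0.0553) and without 2 mg/kg replicate 3 (0.057) or 10 mg/kg replicate 2 (0.0673), and Nrg1, the growth factor neuregulin 1, gave 0.88 ± 0.49 without a call (adjusted p = 0.406). Plat, tissue plasminogen activator, rose by 2.08 ± 0.33 (adjusted p = 0.00159), with the same loss under no scaling (adjusted p = 0.21), while Plau, the urokinase-type activator, fell by 2.45 ± 0.37 (adjusted p = 0.00112).

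Stress and detoxification genes moved in both directions. Gpx2, a glutathione peroxidase induced by Nrf2, read 9.58, 9.56 and 10.34 at 2 mg/kg and 13.69, 13.84 and 13.88 at 10 mg/kg and rose by 3.97 ± 0.35 (adjusted p = 2.65e-05). It was the 1 riser among 7 named Nrf2 and glutathione genes, of which Gsr and Gsta2 fell and 4 did not pass the test. Gsr, glutathione reductase, fell by 1.88 ± 0.47 (adjusted p = 0.0259), a call lost when 2 mg/kg replicate 1 or 2, or 10 mg/kg replicate 2 or 3, was left out (adjusted p up to 0.111). Gsta2, a glutathione transferase, fell by 1.31 ± 0.29 and lost its call in the 6-array fit (adjusted p = 0.0691). Zfand2a, an arsenite-inducible protein that binds the proteasome, rose by 3.85 ± 0.47 (adjusted p = 0.000251), and Tmbim1, a membrane protein that restrains death receptor signalling, by 3.86 ± 0.30 (adjusted p = 1.13e-05). Asns, asparagine synthetase and a target of ATF4, rose by 2.29 ± 0.46 (adjusted p = 0.00718), whereas Psat1, a serine synthesis enzyme under the same factor, fell by 3.09 ± 0.35 (adjusted p = 0.000166). With no scaling the call for Asns was lost (adjusted p = 0.087).

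Several rises fell outside these groups. Ces2c, a carboxylesterase that cleaves drug esters, was the 1 riser among 12 named xenobiotic genes. It read 13.001, 12.87 and 13.16 at 2 mg/kg and 16.17, 15.91 and 15.998 at 10 mg/kg, a rise of 3.02 ± 0.26 (adjusted p = 2.65e-05). Olr1, the receptor for oxidised low-density lipoprotein, rose by 3.62 ± 0.53 (adjusted p = 0.000958). Trpv6, an epithelial calcium channel, rose by 2.47 ± 0.34 (adjusted p = 0.000634) from a mean percentile of 14.9 at 2 mg/kg to 66.4 at 10 mg/kg. Of the 42 named risers, 12 lay below the array median at 2 mg/kg and 0 did at 10 mg/kg. Of the 203 named fallers, 0 lay below it at 2 mg/kg and 19 did at 10 mg/kg. No background or detection value was available to set a floor for either set.

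**Figure D2:**
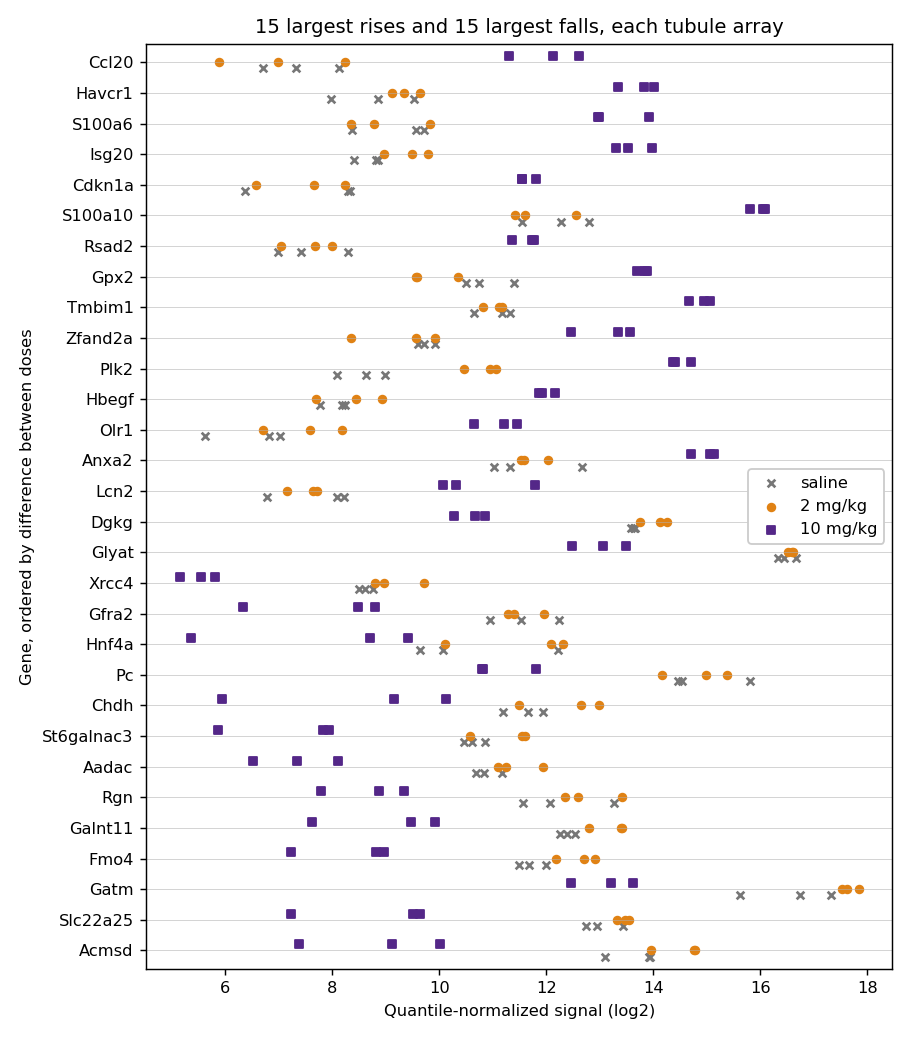
Quantile-normalized log2 signal (horizontal axis) on each saline, 2 mg/kg and 10 mg/kg tubule array for the 15 named genes with the largest rises and the 15 with the largest falls, ordered by the difference between the doses. The genes were picked among those whose arrays do not overlap, so the 3 squares of 10 mg/kg lie apart from the 3 circles of 2 mg/kg by choice, and the saline crosses lie on or near the circles for most genes.

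Carriers and brush border proteins of the proximal tubule fell in 16 of 20 named members (80.0%), beside 50.6% of all named genes. None rose, and the median was -2.14, beside -1.31 for all named genes. Of the 16 calls, 12 were also made in the 6-array fit. Slc34a1, the sodium phosphate carrier of the brush border, was among the brightest probes of the array at 2 mg/kg, at a mean percentile of 99.99. It read 19.91, 19.77 and 19.48 at 2 mg/kg and 17.79, 17.39 and 17.61 at 10 mg/kg. All 3 arrays at 10 mg/kg lay below the others and the transcript fell by 2.12 ± 0.29 (adjusted p = 0.000584). Cubn, the scavenger receptor cubilin, which takes up filtered proteins, read 13.94, 14.08 and 13.32 at 2 mg/kg and 10.98, 10.41 and 11.32 at 10 mg/kg and fell by 2.88 ± 0.40 (adjusted p = 0.000629). Anpep, an aminopeptidase of the brush border, fell by 2.89 ± 0.40, and Slc9a3, the sodium-proton exchanger that recovers bicarbonate, by 2.93 ± 0.49. Slc37a4, the glucose 6-phosphate carrier of the endoplasmic reticulum, fell by 2.83 ± 0.32, Slc13a1, a sulfate carrier, by 2.84 ± 0.37, and Miox, the kidney's inositol oxygenase, by 2.67 ± 0.32. The 4 that did not pass the test were Slc5a2, Slc25a10, Aqp7 and Slc25a20. Slc5a2, the glucose carrier SGLT2 of the early proximal tubule, read 17.10, 16.71 and 16.85 at 2 mg/kg and 14.90, 14.97 and 14.47 at 10 mg/kg, a difference of -2.11 ± 0.69 (adjusted p = 0.0968). These arrays did not overlap and were tight within each dose. The test uses the spread within groups over all 15 arrays, and at 10 mg/kg the SD of this gene was 1.86 in whole kidneys beside 0.272 in tubules. Fits on the 6 arrays or the 9 tubule arrays called the fall (adjusted p = 0.0184 and 0.00792).

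Amino acid transporters fell in 8 of 9 named members (88.9%, beside 50.6% of all named genes), with a median of -2.75. Slc6a13, a carrier of GABA and taurine, fell by 3.23 ± 0.38 (adjusted p = 0.000219), and Slc1a1, the glutamate and aspartate carrier, by 2.87 ± 0.34 (adjusted p = 0.000219). Slc3a1 and Slc7a9 encode the heavy and light chains of the cystine transporter whose loss causes cystinuria. Slc3a1 read 16.90, 17.15 and 16.36 at 2 mg/kg and 14.68, 13.68 and 13.80 at 10 mg/kg, and Slc7a9 read 14.67, 14.33 and 14.47 at the lower dose and 13.17, 11.92 and 12.29 at the higher. Both chains were lower on every array of the higher dose, at differences of -2.75 ± 0.37 and -2.03 ± 0.34 (adjusted p = 0.000518 and 0.00253). Slc7a12 and Slc6a18, members of the same carrier families as other genes of the list, fell by 3.08 ± 0.59 and 2.97 ± 0.46. Slc16a10, a carrier of aromatic amino acids, was the member that did not pass the test, at -0.36 ± 0.49.

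Of 4 named organic ion carriers, 3 fell. Slc22a25, a member of the organic anion carrier family, read 13.55, 13.47 and 13.31 at 2 mg/kg and 9.52, 7.22 and 9.64 at 10 mg/kg, and it fell by 4.65 ± 0.53 (adjusted p = 0.000178). Slc22a6, the basolateral carrier OAT1, which takes up organic anions for secretion, read 17.56, 17.78 and 16.83 at 2 mg/kg and 14.64, 14.84 and 15.66 at 10 mg/kg and fell by 2.34 ± 0.40 (adjusted p = 0.00246). Slc22a5, the carnitine carrier, fell by 2.43 ± 0.27 (adjusted p = 0.000151). Slc22a7, the carrier OAT2, read 7.61, 7.66 and 6.52 at 2 mg/kg and 6.75, 7.67 and 8.60 at 10 mg/kg. Its arrays overlapped and its difference of 0.41 ± 0.55 did not pass the test. The signal of Slc22a7 lay below the array median at 2 mg/kg. No detection limit was available, and whether the dim signal hid a fall was not tested.

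Genes of gluconeogenesis, a task the proximal tubule shares with the liver, and of pyruvate metabolism fell in 5 of 6 named members. This share of 83.3% stood beside 50.6% of all named genes, and the median was -3.03. Of these calls, 4 were also made in the 6-array fit. Pc, pyruvate carboxylase, which makes oxaloacetate from pyruvate, read 14.98, 15.38 and 14.16 at 2 mg/kg and 10.82, 10.80 and 11.81 at 10 mg/kg. It fell by 3.70 ± 0.45 (adjusted p = 0.000251), which was larger than the spread at either dose. Fbp1, fructose bisphosphatase, read 17.22, 17.50 and 17.75 at the lower dose and 15.08, 14.01 and 14.76 at the higher and fell by 2.87 ± 0.33 (adjusted p = 0.000202). G6pc1, the glucose 6-phosphatase that releases free glucose, fell by 3.23 ± 0.61 (adjusted p = 0.00523), beside its carrier Slc37a4 given above. Pdk2, a kinase that inhibits pyruvate dehydrogenase, fell by 3.18 ± 0.84 (adjusted p = 0.0349), but lost its call in 7 alternatives, among them the fit on the 6 arrays (adjusted p = 0.134). Glud1, glutamate dehydrogenase, gave -0.32 ± 0.36 without a call.

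Fatty acid oxidation and peroxisomal genes fell in 7 of 11 named members (63.6%), beside 50.6% of all named genes, and their median of -1.30 was close to that of all named genes, -1.31. Of these calls, 4 were also made in the 6-array fit. Hao2, a peroxisomal hydroxyacid oxidase, fell by 2.72 ± 0.28 and Acsm2, a medium-chain acyl-CoA ligase of the kidney, by 2.69 ± 0.28 (adjusted p = 9.5e-05 for both). Amacr, the racemase for branched fatty acids, fell by 2.22 ± 0.29, and Decr2, the peroxisomal dienoyl-CoA reductase, by 2.09 ± 0.36. Its mitochondrial counterpart Decr1, at -0.54 ± 0.40, did not pass the test, nor did Acadvl, the very long chain dehydrogenase, at -1.05 ± 0.43. Of 5 named genes of the respiratory chain and inner membrane, 2 fell (40.0%), beside 50.6% of all named genes. The median of the 5 was -0.80, beside -1.31 for all named genes. Ndufs1, a core subunit of complex I, fell by 1.73 ± 0.31, and Aifm1, which supports assembly of complex I, by 1.60 ± 0.30. The complex I subunits Ndufv1 and Ndufv3 gave -0.80 ± 0.29 and -0.71 ± 0.27 without a call.

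Enzymes of amino acid, tryptophan and amine metabolism fell in 24 of 27 named members (88.9%). This stood beside 50.6% of all named genes, and the median was -2.24. Of the 24 calls, 16 were also made in the 6-array fit, and the same number in every alternative. Pccb, a subunit of propionyl-CoA carboxylase, and Qprt, an enzyme of NAD synthesis from tryptophan, lost theirs in 11 alternatives each. Acmsd, the decarboxylase that steers tryptophan breakdown away from NAD synthesis, showed the largest fall of all named genes. It read 14.77, 14.77 and 13.96 at 2 mg/kg and 10.01, 7.38 and 9.12 at 10 mg/kg. The arrays at 10 mg/kg were spread more widely than those at 2 mg/kg, and the difference was -5.66 ± 0.59 (50.7-fold lower, adjusted p = 9.5e-05). Without 10 mg/kg replicate 2 it was 30.6-fold lower and without 10 mg/kg replicate 1 it was 76.3-fold lower. Kynu, kynureninase of the same pathway, fell by 3.33 ± 0.30 (adjusted p = 3.9e-05). Gatm, which makes the creatine precursor guanidinoacetate, read 17.62, 17.84 and 17.52 at 2 mg/kg and 13.62, 12.45 and 13.21 at 10 mg/kg and fell by 4.57 ± 0.47 (23.7-fold lower, adjusted p = 9.5e-05). Its 3 arrays at 2 mg/kg lay above every saline array. Glyat, which joins glycine to benzoate and other acids, read 16.59, 16.51 and 16.62 at 2 mg/kg and 13.50, 12.48 and 13.06 at 10 mg/kg. The low-dose values were tight, and the difference was -3.56 ± 0.30 (adjusted p = 2.32e-05). Cpq, a secreted carboxypeptidase that is in none of the lists, fell by 3.40 ± 0.31 (adjusted p = 3.9e-05), and Dio1, the deiodinase that activates thyroid hormone, by 3.12 ± 0.29 (adjusted p = 4.43e-05). Dpys, which opens the ring of reduced pyrimidines, fell by 3.11 ± 0.29 (adjusted p = 4.3e-05). Chdh, choline dehydrogenase of the betaine pathway, fell by 3.97 ± 0.87, a call lost in the 6-array fit (adjusted p = 0.0821) and without 2 mg/kg replicate 1 (0.0581) or 2 (0.0677). Asl, Gnmt and Sds did not pass the test, at -1.26 ± 0.36, -0.26 ± 0.32 and -0.07 ± 0.57.

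Xenobiotic enzymes fell in 9 of 12 named members, with a median of -1.94, and 7 of these calls were also made in the 6-array fit. Fmo4, a flavin monooxygenase, read 12.71, 12.92 and 12.18 at 2 mg/kg and 8.97, 7.23 and 8.82 at 10 mg/kg and fell by 4.26 ± 0.43 (adjusted p = 8.88e-05). Rgn, regucalcin, a gluconolactonase that binds calcium, fell by 4.13 ± 0.48 (adjusted p = 0.000214), and the arylacetamide deacetylase Aadac fell by 4.11 ± 0.57 (adjusted p = 0.000651). Every array of the higher dose lay below those of the lower dose for all 3 genes, as for every named gene called lower. Aldh1a1, at -0.57 ± 0.36, and Sult1b1, at -1.11 ± 0.49, did not pass the test.

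Of 14 named genes of hormone and growth factor signalling, 9 (64.3%) fell, beside 50.6% of all named genes, and Hbegf and Pdgfa rose. Of the 9 calls, 7 were also made in the 6-array fit and 6 in every alternative. Pth1r, the parathyroid hormone receptor that controls phosphate uptake, read 15.01, 14.89 and 14.33 at 2 mg/kg and 12.09, 12.43 and 13.14 at 10 mg/kg and fell by 2.19 ± 0.37 (adjusted p = 0.00269). Agtr1a, the angiotensin II receptor, fell by 2.54 ± 0.51 (adjusted p = 0.00799), and Thrb, a thyroid hormone receptor, by 3.002 ± 0.42 (adjusted p = 0.000738). Prlr, the prolactin receptor, fell by 2.73 ± 0.42 and Guca2b, the peptide uroguanylin, by 2.34 ± 0.39. Gfra2, a coreceptor for neurturin, fell by 3.67 ± 0.70 (adjusted p = 0.00569), with 1 array at 10 mg/kg far below the other 2 in a reading of 8.49, 6.34 and 8.81. Besides Fgf9, the others were Hsd11b1, which regenerates active glucocorticoid, at -1.42 ± 0.27, and the glucocorticoid receptor Nr3c1, at -1.15 ± 0.31, whose call was lost in 11 alternatives.

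Smaller groups showed a mixed pattern, and their counts are to be read beside the 50.6% of all named genes that fell. Among 9 named genes of cytoskeleton, adhesion and matrix, the spectrin partner Add3 and the cadherins Cdh2 and Cdh16 fell, by 2.63 ± 0.45, 1.93 ± 0.35 and 1.83 ± 0.31, along with Plau. Of 5 glycan and sphingolipid enzymes, 3 fell, 2 of them in every alternative. These falls were led by Galnt11, which starts O-linked glycans, at -4.20 ± 0.53, and the sialyltransferase St6galnac3 at -4.04 ± 0.66 (adjusted p = 0.000351 and 0.00203). Secreted plasma proteins fell in 4 of 6 named members, 2 of them also in the 6-array fit and 2 in every alternative. The falls included Serpinc1, antithrombin, by 1.91 ± 0.37, and Spp2, secreted phosphoprotein 2, by 2.66 ± 0.38, while Lcn2 rose. Of 7 genes of channels and calcium signalling, Dgkg, a diacylglycerol kinase, fell by 3.44 ± 0.41, and Itpr1, the calcium release channel, by 2.06 ± 0.28. Xrcc4, a partner of DNA ligase IV in the joining of double-strand breaks, was in none of these lists and read 8.80, 8.97 and 9.71 at 2 mg/kg and 5.81, 5.55 and 5.16 at 10 mg/kg. It fell by 3.66 ± 0.46 (adjusted p = 0.000329).

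Transcription factor Hnf4a, which drives many proximal tubule genes, read 12.08, 12.32 and 10.11 at 2 mg/kg and 8.71, 5.36 and 9.41 at 10 mg/kg. The doses did not overlap, but single arrays lay far from their group at both doses, and the difference of -3.68 ± 0.93 had an adjusted p of 0.0291. This call was lost in the fits on 6 and 9 arrays (adjusted p = 0.116 and 0.086) and without 2 mg/kg replicate 1 (0.118), 2 mg/kg replicate 2 (0.13) or 10 mg/kg replicate 2 (0.102).

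**Figure D3:**
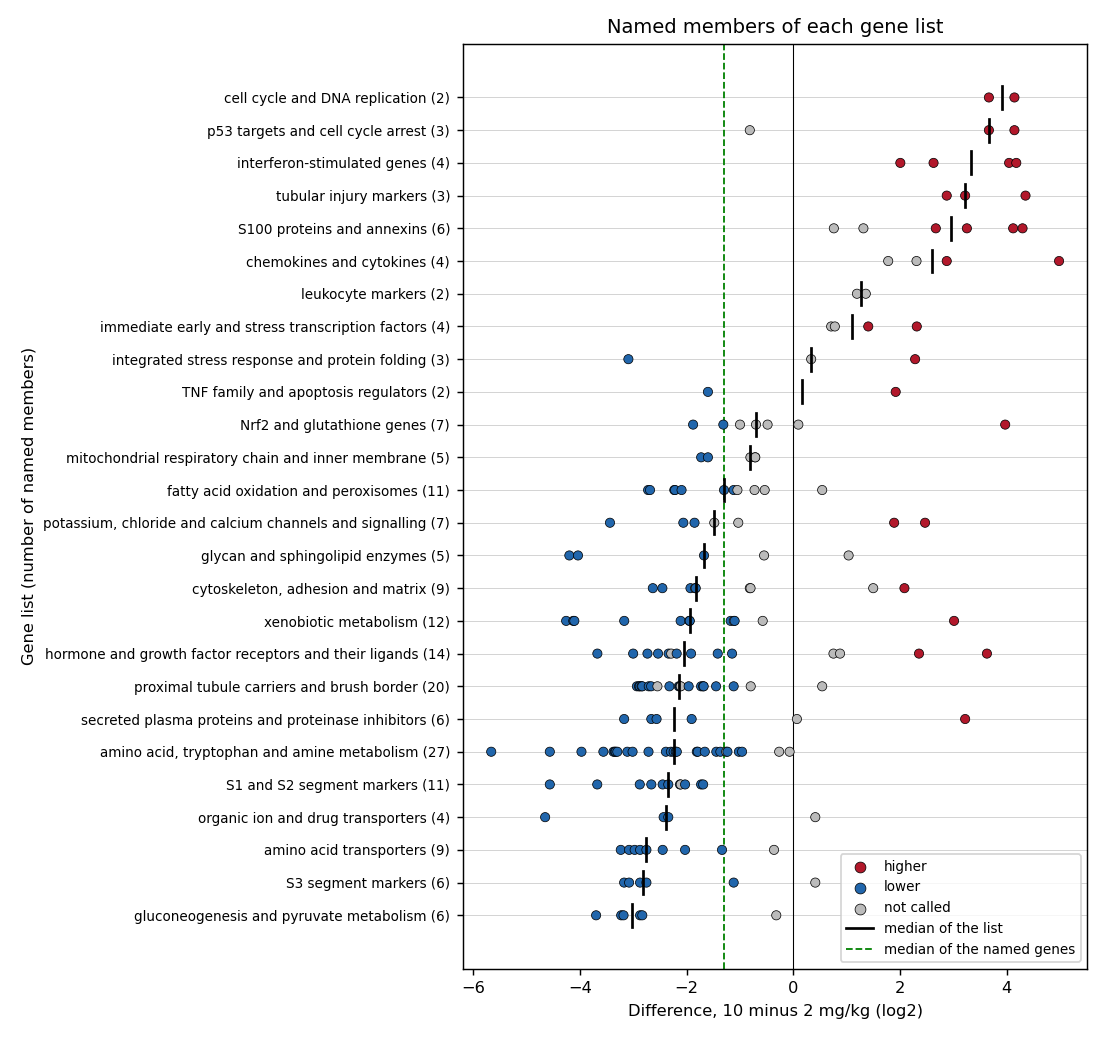
Difference between 10 and 2 mg/kg (log2, horizontal axis) of each named member of the gene lists, with 1 row per list, the number of named members in brackets, a black bar at the list's median and a dashed line at the median of the named genes. Lists of carriers and metabolic enzymes lie at -1.30 to -3.03, and the injury, S100, interferon and chemokine lists at 2.59 to 3.34.

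The promoters of these genes were searched for short motifs as a description of their sequence. RefSeq windows of assembly GRCr8, from 250 bases before to 50 bases after the annotated start, were available for 329 of the 401 named genes, 352 windows in all because some genes have several starts. Each motif was searched on both strands, and the motifs may overlap one another. The AP-1 motif TGANTCA stood in 6 of 37 windows (16.2%) of genes that rose, in 12 of 185 (6.49%) of those that fell and in 7.33% of all 33469 windows. The interferon response motif GAAANNGAA stood in 10.8%, 6.49% and 9.71% of the same sets. The HNF1 recognition core GTTAAT stood in 19 of 185 windows (10.3%) of genes that fell, 5.41% of those that rose and 7.45% of all, and the HNF4 motif CAAAGTCCA in 3 of 185 (1.62%), 1 of 37 (2.7%) and 0.391%. The ATF4 motif TGATGNAA stood in 2.7% of windows of genes that rose, 1.62% of those that fell and 3.98% of all, and the antioxidant motif TGACNNNGC in 13.5%, 17.3% and 12.1%. These counts are small and no test was made on them.

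The 250 bases before the start are shown for 5 genes, 2 that rose and 3 that fell, picked after their values and motifs were seen so that the AP-1, interferon, HNF1 and HNF4 motifs can each be seen in a sequence. Values of Isg20, Rsad2, Slc34a1 and Slc3a1 stand above, and Pdzk1, whose protein anchors carriers at the brush border, fell by 1.96 ± 0.27 (adjusted p = 0.00065). Capitals mark every match to any of the 6 motifs searched. The windows are chr1:142239809-142240058 on the plus strand for Isg20, chr6:48788121-48788370 on the minus strand for Rsad2, chr17:9238984-9239233 on the minus strand for Slc34a1, chr6:15394750-15394999 on the minus strand for Slc3a1 and chr2:187064745-187064994 on the plus strand for Pdzk1. Each sequence runs 5′ to 3′ on the strand of its gene and ends at the base before the start.
Isg20: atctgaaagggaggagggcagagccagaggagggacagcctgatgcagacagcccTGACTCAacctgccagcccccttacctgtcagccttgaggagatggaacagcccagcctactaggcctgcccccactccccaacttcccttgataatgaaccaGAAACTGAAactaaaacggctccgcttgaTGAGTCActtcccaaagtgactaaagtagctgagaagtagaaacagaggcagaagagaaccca
Rsad2: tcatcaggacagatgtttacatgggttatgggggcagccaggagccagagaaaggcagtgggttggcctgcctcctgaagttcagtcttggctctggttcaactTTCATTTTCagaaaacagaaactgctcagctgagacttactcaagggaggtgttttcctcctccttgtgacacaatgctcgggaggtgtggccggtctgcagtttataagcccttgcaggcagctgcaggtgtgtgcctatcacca
Slc34a1: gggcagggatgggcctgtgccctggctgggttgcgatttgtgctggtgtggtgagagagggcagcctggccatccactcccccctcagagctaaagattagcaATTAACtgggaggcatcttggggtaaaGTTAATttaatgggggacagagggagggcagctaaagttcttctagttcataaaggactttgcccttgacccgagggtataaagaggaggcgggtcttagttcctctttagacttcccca
Slc3a1: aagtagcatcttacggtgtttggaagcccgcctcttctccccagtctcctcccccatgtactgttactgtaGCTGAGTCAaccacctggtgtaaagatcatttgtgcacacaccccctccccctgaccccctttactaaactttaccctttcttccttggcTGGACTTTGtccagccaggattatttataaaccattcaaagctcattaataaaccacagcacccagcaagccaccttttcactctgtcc
Pdzk1: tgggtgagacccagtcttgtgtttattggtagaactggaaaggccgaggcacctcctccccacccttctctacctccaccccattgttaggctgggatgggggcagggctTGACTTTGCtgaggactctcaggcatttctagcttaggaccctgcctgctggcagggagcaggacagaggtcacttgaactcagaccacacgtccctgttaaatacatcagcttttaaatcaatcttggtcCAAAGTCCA
The riser Isg20 holds AP-1 motifs that begin 195 and 63 bases before the start and an interferon motif 92 bases before it, and Rsad2 holds an interferon motif 146 bases before it. Slc34a1 holds its HNF1 cores 147 and 120 bases before the start. The faller Slc3a1 holds an HNF4 motif 89 bases before the start, and also an antioxidant motif and an AP-1 motif that overlap, 179 and 177 bases before it. Pdzk1 holds an antioxidant motif 140 bases and an HNF4 motif 9 bases before the start. A match of letters does not show that a factor binds there.

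The label of the tissue could be checked against proximal tubule markers only in part. Of 17 markers of the S1 and S2 segments, 11 had a named probe, and of 14 markers of the S3 segment, 6 did. At 2 mg/kg the brush border genes Slc34a1, Cubn and Slc3a1, picked from these lists, stood at mean signal percentiles of 99.99, 96.2 and 99.60 of their arrays. Every named gene that fell, and so each marker that fell, lay above the array median at 2 mg/kg. The S3 marker Slc22a7 lay below that median, at the values given above. Glomerular, distal tubule and collecting duct, endothelial, stromal and erythroid marker lists had 0 named probes, so admixture of those cells could not be read and its part in the results was not tested. Segment markers fell in both parts of the tubule, 10 of 11 (90.9%) for S1 and S2 with a median of -2.34. For S3, 5 of 6 (83.3%) fell, with a median of -2.81. These shares stand beside 50.6% of all named genes, whose median was -1.31. The exceptions were Slc5a2, whose call depended on the arrays fitted as given above, and Slc22a7. The calls for the S1 and S2 markers Slc4a4 and Slc13a3 and for the S3 markers Slc27a2 and Gc, the vitamin D-binding protein, were lost in 7 to 10 alternatives each, and that for Hnf4a in 5.

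The saline tubules place both doses on a common scale. The comparisons of each dose with saline share arrays with the comparison of the doses, so their values are given side by side only. At 2 mg/kg, 0 probes were called against saline in limma at an adjusted p of 0.05. An unadjusted p under 0.05 was found for 903 of 26601 probes, fewer than the 1330 that this threshold gives where nothing differs. The spread in this fit was estimated over all groups of the series, whole kidneys included. Its median residual SD over the 15 arrays was 0.666. The median SD on the 3 tubule arrays at 2 mg/kg was 0.421, which rests on fewer arrays and is not directly comparable. The lack of calls does not show that the tubules were unchanged at 2 mg/kg. The median difference of 2 mg/kg from saline was -0.12 over the 42 named genes that rose between the doses and 0.17 over the 203 that fell, and that of 10 mg/kg from saline was 2.33 and -1.94. Havcr1 read 8.85, 9.52 and 7.97 in saline tubules, beside 9.12, 9.34 and 9.64 at 2 mg/kg, and these ranges overlapped. Plk2 read 8.98, 8.09 and 8.63 in saline tubules, below all of its arrays at 2 mg/kg, by 2.26 ± 0.56, with an adjusted p of 1. Asns likewise read 6.41, 5.68 and 6.52 in saline tubules, 8.31, 8.30 and 7.21 at 2 mg/kg and 10.36, 10.12 and 10.20 at 10 mg/kg, with each dose above the one before, the lower by 1.73 ± 0.46 (adjusted p = 1). Some genes that fell at 10 mg/kg lay above saline at 2 mg/kg. Gatm read 15.62, 16.74 and 17.32 in saline tubules, 2 mg/kg exceeding it by 1.10 ± 0.47 (adjusted p = 1), and Fmo4 read 11.99, 11.49 and 11.68 and was exceeded by 0.88 ± 0.43 (adjusted p = 1). Neither step passed the test.

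**Figure D4:**
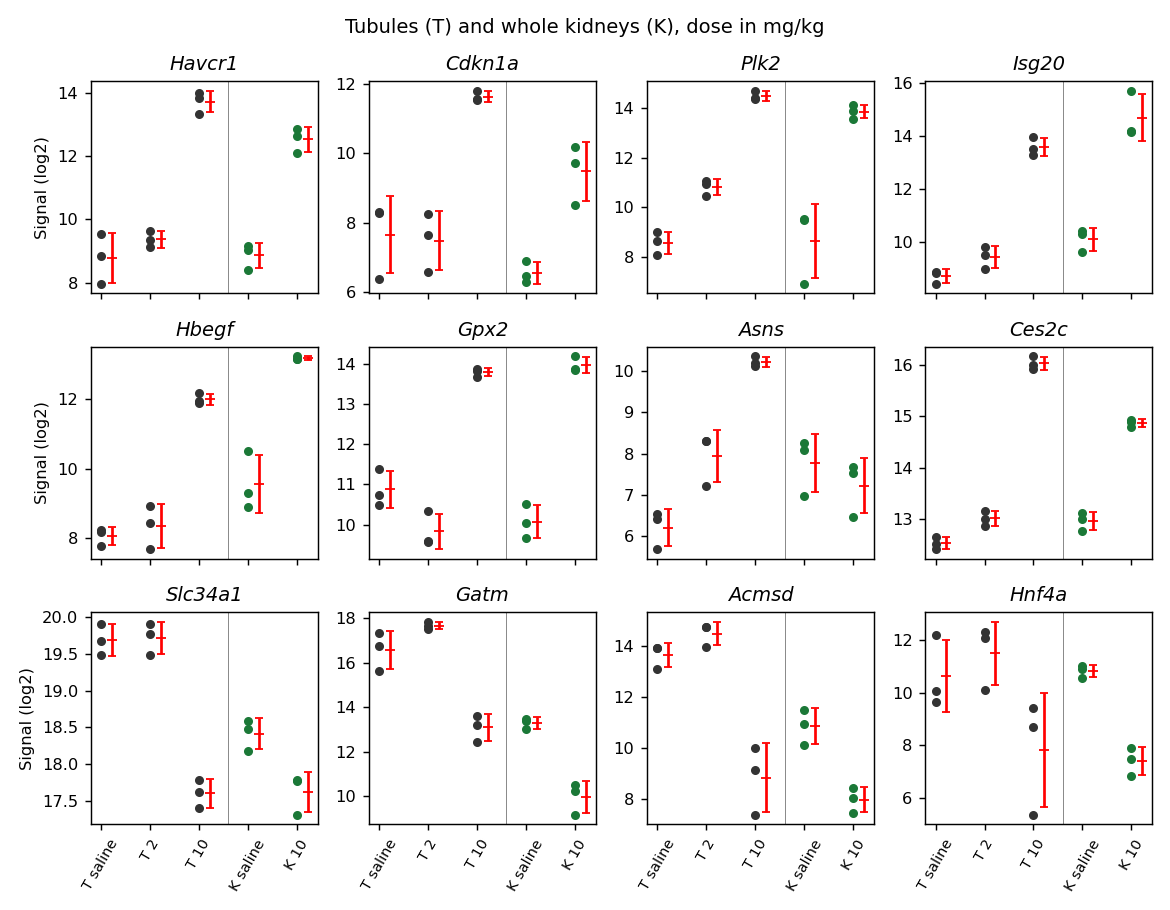
Log2 signal (vertical axis, own scale for each gene) of 12 named genes on the tubule arrays (T; saline, 2 and 10 mg/kg) and the whole kidney arrays (K; saline and 10 mg/kg), with 1 point per array and the mean ± SD in red. The step at 10 mg/kg is seen in the tubules for all 12 genes, Plk2 and Asns lie above saline at 2 mg/kg by 2.26 and 1.73, and the whole kidney difference of Asns is -0.55, and none of these 3 differences was called.

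Whole kidneys of rats given 10 mg/kg were set beside the tubule values. Those 6 arrays do not enter the difference between the doses, but they share its normalization and its estimate of the spread, and without them 1418 probes were called between the doses in place of 1711. There 779 probes (2.93%) rose and 938 (3.53%) fell against saline. Of the probes that rose between the tubule doses, 304 also rose in whole kidneys, 43.0% of the tubule list and 39.0% of the whole kidney list, and 1 fell. Of those that fell, 387 also fell, 38.5% and 41.3% of the respective lists, and 3 rose. Among named genes, 34 of 42 risers rose (81.0% of the tubule list and 60.7% of the whole kidney list). Of the fallers, 128 of 203 fell (63.1% and 68.8%), and 0 named genes were called in the opposite direction. These shares are to be read beside all 401 named genes, of which 56 rose and 186 fell in whole kidneys.

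The genes with large differences in the tubules were not all called in whole kidneys. Whole kidney differences were 3.67 ± 0.41 for Havcr1, 5.23 ± 0.56 for Plk2 and 4.71 ± 0.72 for Ccl20, all past the test. For Rsad2 the whole kidney difference was 1.19 ± 0.56 (adjusted p = 0.246), beside 4.05 ± 0.56 between the tubule doses. Asns gave -0.55 ± 0.46 (adjusted p = 0.553), with the opposite sign. Among the falls, Slc34a1 gave -0.79 ± 0.29 (adjusted p = 0.13) and Slc22a6 -0.89 ± 0.40 (adjusted p = 0.223), and neither passed the test there. Aadac gave 0.26 ± 0.57 (adjusted p = 0.857), Xrcc4 0.89 ± 0.46 (adjusted p = 0.297) and Agtr1a 0.26 ± 0.51 (adjusted p = 0.839), none of them called. In the other direction, Slc22a7, with no call and a dim signal in the tubules, fell in whole kidneys by 2.87 ± 0.55 (adjusted p = 0.00629). Egr2 rose there by 4.003 ± 0.72 (adjusted p = 0.00458). These differences between tissues were not tested, and the baselines differ, 2 mg/kg cisplatin in one comparison and saline in the other.

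**Figure D5:**
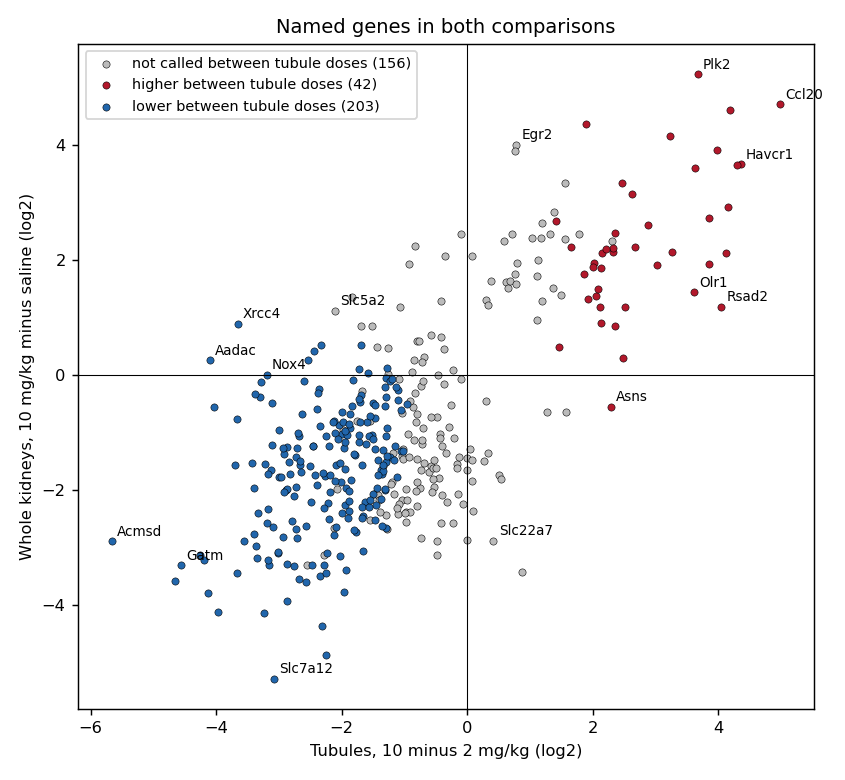
Difference between 10 mg/kg and saline in whole kidneys (log2, vertical axis) against the difference between 10 and 2 mg/kg in tubules (log2, horizontal axis) for the 401 named genes, coloured by the tubule call. Most called genes lie in the lower left and upper right. Asns lies below 0 on the vertical axis, and Aadac and Xrcc4 above it.

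At the edge of the threshold, the called genes with the largest adjusted p were Pygl, liver glycogen phosphorylase, at -1.88 ± 0.52 (adjusted p = 0.0447), and Slc27a2, an acyl-CoA synthetase and fatty acid carrier, at -1.12 ± 0.31 (adjusted p = 0.0442). Their calls were lost in 8 and 10 alternatives. Just outside it lay the chloride channel protein Clic4 at -1.48 ± 0.42 (adjusted p = 0.0507) and Nt5e, the ecto-enzyme that makes adenosine, at -1.41 ± 0.40 (adjusted p = 0.053). Some of the largest differences on the array belonged to probes without a name. Probe 20900698 rose by 5.46 and probe 21682316 by 5.38, while probe 21611810 fell by 5.22 and probe 22188942 by 5.04. All 4 were called in the same direction in whole kidneys.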

How the data were processed

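Each array file deposited by the authors holds 1 linear intensity per probe, per the labels and the values. No source used here names scanner software, background correction or spot filters. The files list 26207 to 26547 of 26857 probes, with signals from 4.35 to 3516337 and array medians from 226 to 411 in the 6 arrays compared, and 0 pairs of arrays were identical. The authors also deposited a series table of 1219 probes as a ratio, the signal divided by 1 constant per array. The number of arrays limits the precision, and no detection limit was available.

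Intensities were log2 transformed and quantile normalized over the 15 arrays. Of the 26857 probes, 26601 had 2 or more values in every group and were kept, and group means were fitted with limma 3.58.1 in R 4.3.3, with 10 residual degrees of freedom and a moderated spread over the 5 groups. Two-sided p-values were adjusted by Benjamini-Hochberg across all probes, a call being an adjusted p under 0.05. The fit was also run on simulated data with known changes. Those data had normal noise with the same spread in every group, so the run could not test spreads that differ between groups. SE comes from the fit. Replicate numbers showed no pairing of the arrays. The correlations of same-numbered deviations were -0.013, -0.043 and -0.054, beside -0.019 to 0.046 for differently numbered arrays. These values cannot exclude a pairing.

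The platform table gave 1 symbol for 401 probes, several for 2, which were not named, and none for 26454. All 401 matched RefSeq by Entrez identifier with 0 symbols updated. The genes named are the 15 largest rises and falls whose arrays do not overlap, the 10 smallest adjusted p, up to 4 of smallest adjusted p per gene list, a set of known markers, and the genes next to the threshold. Acadvl, Aldh1a1, Anxa1, Aqp7, Asl, Cdh2, Decr1, Glud1, Gnmt, Guca2b, Hsd11b1, Nr3c1, Nrg1, Pccb, Pdk2, Pdzk1, Qprt, S100a4, Sds, Slc13a3, Slc16a10, Slc25a10, Slc25a20, Slc4a4, Slc7a9, Slc9a3 and Sult1b1 were named after their values were seen, as were the printed promoters. The comparison, gene lists and tests were chosen with earlier results of these data known. Of 1250 genes in 31 lists, 167 had a named probe. Alternatives were other scalings, fits on 6 or 9 arrays, a replicate block, array weights, filters on dim or incomplete probes, a trended spread, the authors' series table and leaving out each array.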

Additional observations from a re-analysis of the deposited data

How the results depend on the processing

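Of 172 named genes recomputed, 5 changed sign in some alternative (Gss, Sds, Slc16a10, Slc22a7 and Slc25a20, called in no alternative), and counts of calls moved. Of the genes described without a call, Acadvl, Aldh1a1, Anxa1, Aqp7, Asl, C1qa, C1qc, Ccl2, Cd82, Clic4, Cxcl2, Klf5, Ndufv1, Ndufv3, Nt5e, Slc25a10, Slc5a2 and Sult1b1 passed the test in at least 1 alternative. Beside 1711 calls, with 707 higher and 1004 lower, the fit on the 6 arrays alone gave 1098, with 437 and 661, and array weights gave 3395, with 1596 and 1799. Without scaling there were 1010 calls, 142 of them higher, and 20 named genes rose instead of 42. Median centring left 352 rises, and 335 probes called in both tubules and whole kidneys instead of 691. Keeping only probes above the median brightness gave 2588 calls with 1164 rises, a trended spread 1151 rises, and the authors' deposited values gave 956 calls with 172 rises, over the 1219 probes of their table. Leaving out 1 array gave 927 to 1447 calls, 358 to 633 higher and 562 to 867 lower. The lowest counts came without 2 mg/kg replicate 1 (927) and replicate 2 (936), and without 10 mg/kg replicate 3 rises numbered 463. Named genes called higher numbered 39 to 41 and lower 142 to 179 in those fits. With the replicate number as a block (replicate block), 1447 probes were called, 582 higher and 865 lower, and named genes 41 and 180. The correlations of same-numbered arrays showed no pairing but cannot exclude one. This fit lost 25 of the named calls, and they are counted as lost in what follows. Of 245 named calls, 143 were kept in every alternative in which they could be tested and 174 whenever 1 array was left out. The causes of these moves were not tested, apart from the fewer arrays or probes that a setting itself uses. Few dim probes were called, no background value was available, and the part of dimness in the calls was not tested.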

Other observations

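The glucose carrier gene Slc5a2 stood apart between tissues. In saline animals it read 16.44, 16.87 and 17.12 in isolated tubules and 7.75, 7.45 and 9.01 in whole kidneys on the log2 scale, a gap far above the spread within either group, while the phosphate carrier Slc34a1 of the same cells read 19.48, 19.67 and 19.91 and 18.48, 18.58 and 18.18. In whole kidneys at 10 mg/kg Slc5a2 read 7.18, 9.54 and 10.85. These levels were compared across tissues in the same normalization and were not tested, and these genes were singled out after their values were seen.

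Xrcc4 and Asns were called between the tubule doses and in neither direction in whole kidneys. Xrcc4 read 6.69, 7.09 and 5.11 in whole kidneys of saline rats and 7.43, 6.78 and 7.36 at 10 mg/kg, beside 8.49, 8.76 and 8.62 in saline tubules. Asns read 8.26, 6.97 and 8.08 and 7.66, 7.54 and 6.47 in the same whole kidney groups. Neither tissue difference was tested.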
